A study of Mus musculus with 20 samples.

Results

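The immediate-early genes of the AP-1 family (Fos, Fosb, Jun and Junb), the EGR family (Egr1 and Egr2) and the NR4A family (Nr4a1 and Nr4a2), together with the neuronal activity genes Arc and Npas4, were followed across sorted nuclei of mouse spinal cord. They were chosen by symbol, and all 10 were found among the 43629 genes of the deposited counts table. Nuclei had been sorted by flow cytometry on NeuN, the neuronal nuclear protein encoded by Rbfox3, and their polyadenylated RNA had been sequenced. Experimental autoimmune encephalomyelitis (EAE) is an immune attack on brain and spinal cord that immunization induces, and serves as a mouse model of multiple sclerosis. The EAE NeuN-positive (neuronal) and EAE NeuN-negative (non-neuronal) nuclei came from mice in acute EAE at day 15 after active immunization, and the Healthy NeuN-positive and Healthy NeuN-negative nuclei came from healthy mice. Each of the 4 groups held 5 libraries. Strain, sex and age were not given in the sources used here. The labels do not say that the libraries of a group are separate mice, so p-values measure the spread between these libraries, which may be technical.

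Immediate-early genes are transcribed soon after a cell is stimulated, without the need for new protein, through factors that are already present such as SRF with its ternary complex partners and CREB. Fos and Jun proteins pair into AP-1, which acts on later genes; EGR proteins are zinc finger factors restrained by the corepressors NAB1 and NAB2, and NR4A proteins are orphan nuclear receptors. In neurons, Arc and Npas4 respond to calcium entry during synaptic activity, whereas Fos, Jun and Egr genes are also induced in glia and leukocytes by growth factors, cytokines and injury.

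Total counts ran from 7072200 to 18686997 in EAE NeuN-positive, from 12076860 to 30499828 in Healthy NeuN-positive, from 3149209 to 15525441 in EAE NeuN-negative and from 8336330 to 37689267 in Healthy NeuN-negative libraries. The libraries of replicates EAE 2, EAE 4 and Healthy 3 stood apart in both sorts by their share of counts from the 13 mitochondrially encoded protein genes, which are cytoplasmic transcripts. This share was 4.17 to 7.52% in the NeuN-positive libraries of EAE 2 and EAE 4, against 0.821 to 0.976% in the other 3 EAE libraries, and 2.33% in Healthy 3, against 0.135 to 0.572% in the other 4 healthy libraries. In NeuN-negative libraries it was 7.84 to 12.3% in EAE 2 and EAE 4 against 1.76 to 6.01% in the other EAE libraries, and 3.55% in Healthy 3 against 0.259 to 1.46% in the other healthy libraries. In the remaining libraries the share was higher in EAE than in healthy mice in both sorts as well. Of the 7 mitochondrial genes tested without the 3 replicates, 5 were called higher in EAE NeuN-positive and 7 in EAE NeuN-negative nuclei, and with all libraries 0 (edgeR and DESeq2 Wald test; 5 at an unadjusted p under 0.05) and 5. Results are therefore given with all libraries and without these 3 replicates. Rbfox3, which checks the sort, averaged 194 ± 58.6 CPM in EAE NeuN-positive, 313 ± 33.3 CPM in Healthy NeuN-positive, 29.3 ± 15.4 CPM in EAE NeuN-negative and 29.7 ± 10.7 CPM in Healthy NeuN-negative libraries (SD, n = 5 each). CPM are counts per 1000000 counts, scaled across the 20 libraries with TMM factors.

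A RefSeq promoter window of GRCm38.p6, from 250 bases before to 50 bases after the start, was matched for 8 of the 10 genes, all but Arc and Egr1. The letters TGACG, the core of the cAMP response element bound by CREB, stood on either strand in a window of 7 of the 8 genes, all but Jun, and in 23.2% of the 26742 genes with windows (20.9% of 32544 windows). The full element TGACGTCA, which contains that core, was in 0 of 8 and in 2.05% of all genes. The AP-1 motif TGANTCA was also in 0 of 8, and in 8.97% of all genes. A CArG box, the element bound by SRF, was in windows of Egr2 alone among the 8, and in 1.82% of all genes. A match describes letters in these windows and is not a shown binding site. Bases outside the windows and variants of these letters were not searched. The lack of a match therefore does not show that a gene lacks the element. The windows of 4 genes are given because the results turn on them: Fos and Junb rose in NeuN-negative nuclei in EAE, Egr2 rose in both sorts, and Npas4 set the sorts apart. They lie at chr12:85473640-85473939 on the plus strand (Fos), chr8:84978699-84978998 on the minus strand (Junb), chr10:67537619-67537918 on the plus strand (Egr2, the first of 3 overlapping windows that hold both motifs) and chr19:4989922-4990221 on the minus strand (Npas4). Capitals mark TGACG, its reverse complement CGTCA and, in Egr2, the CArG box.
Fos: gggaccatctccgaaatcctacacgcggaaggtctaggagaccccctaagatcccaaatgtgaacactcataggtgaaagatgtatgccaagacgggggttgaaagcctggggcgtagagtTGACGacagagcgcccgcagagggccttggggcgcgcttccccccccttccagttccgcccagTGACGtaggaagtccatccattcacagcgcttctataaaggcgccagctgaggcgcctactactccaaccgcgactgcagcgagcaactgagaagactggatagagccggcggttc
Junb: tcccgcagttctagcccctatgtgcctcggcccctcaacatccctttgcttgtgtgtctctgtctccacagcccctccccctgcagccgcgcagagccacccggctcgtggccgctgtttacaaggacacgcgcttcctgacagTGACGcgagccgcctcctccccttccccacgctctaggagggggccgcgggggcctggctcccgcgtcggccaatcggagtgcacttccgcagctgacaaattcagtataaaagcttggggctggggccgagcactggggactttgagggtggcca
Egr2: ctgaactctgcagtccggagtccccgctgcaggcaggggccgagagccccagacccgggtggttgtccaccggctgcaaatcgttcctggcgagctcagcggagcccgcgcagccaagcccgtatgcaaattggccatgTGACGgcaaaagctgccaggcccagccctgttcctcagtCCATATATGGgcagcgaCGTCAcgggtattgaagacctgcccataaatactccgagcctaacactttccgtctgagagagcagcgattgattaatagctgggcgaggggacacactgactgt
Npas4: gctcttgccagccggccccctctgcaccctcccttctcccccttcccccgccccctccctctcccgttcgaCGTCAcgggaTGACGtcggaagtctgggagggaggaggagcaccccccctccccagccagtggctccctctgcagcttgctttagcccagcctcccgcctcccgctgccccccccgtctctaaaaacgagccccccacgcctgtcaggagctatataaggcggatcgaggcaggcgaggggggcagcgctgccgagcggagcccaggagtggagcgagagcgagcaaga
Counting the start as 0, TGACG began at -129 and -66 in Fos and at -106 in Junb. In Egr2 the CArG box began at -72, between cores at -111 and -55, and in Npas4 the cores began at -179 and -169. Nr4a1 and Nr4a2 held 4 cores each.

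In NeuN-negative nuclei, where glia, vascular cells and any infiltrating leukocytes are found, Fos, Fosb, Junb, Egr1, Egr2 and Nr4a1 were higher in EAE and Arc was lower. The size of the rise ran from 1.81-fold for Nr4a1 to 6.61-fold for Junb, and Arc was 3.68-fold lower. Of the 10 genes, 6 were called higher and 1 lower (edgeR quasi-likelihood test, Benjamini-Hochberg adjusted p under 0.05), against 15.1% of the 17604 genes tested called higher and 12.6% called lower. With the 3 replicates left out 7 were called higher and 1 lower, against 17.4% and 12.3% of all genes. Against 7 calls in all with every library, 4 were made without Healthy 1 and 4 without Healthy 2. With the mitochondrial share as a covariate 6 were called higher and 1 lower, with Jun among them in place of Fosb. Shares over all genes with the covariate or with single libraries left out are not given here. The median log2 fold change of the 10 genes was 1.35, and that of all genes tested was 0.05. In these bulk libraries a change in the number of cells of a type and a change in RNA per cell cannot be told apart.

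**Figure D1:**
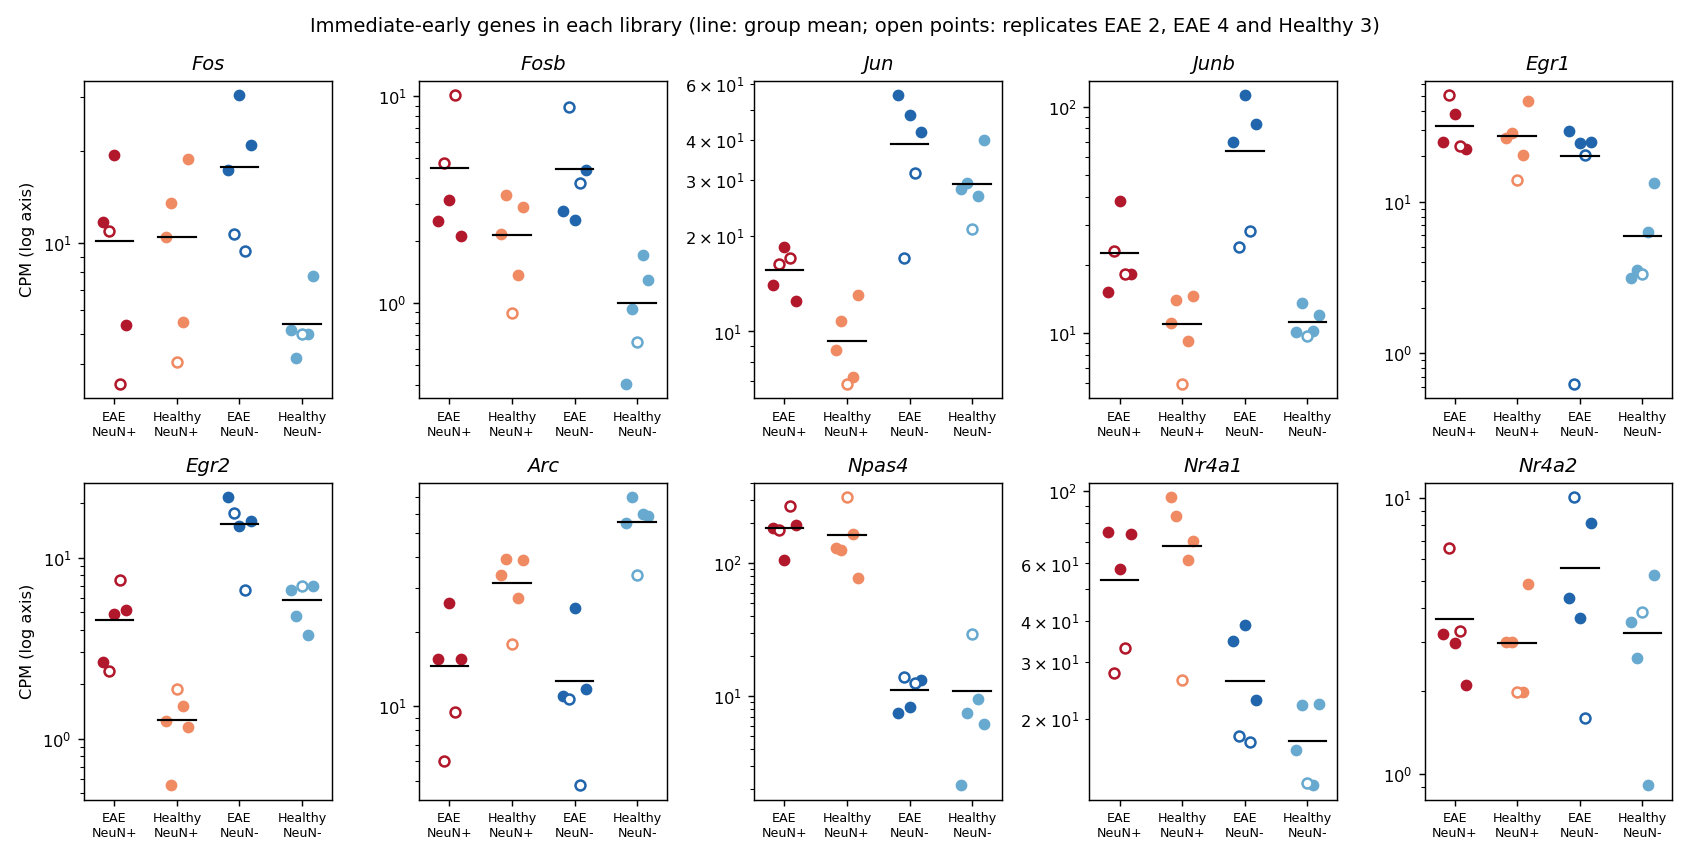
CPM (log axis) of each of the 10 genes in every library of EAE and healthy NeuN-positive and NeuN-negative nuclei; lines are group means and open points are replicates EAE 2, EAE 4 and Healthy 3. All 5 EAE NeuN-negative libraries lie above all 5 Healthy NeuN-negative libraries for Fos, Fosb and Junb and below them for Arc, and Npas4 is at 77.1 CPM or more in every NeuN-positive library and at 29.1 CPM or less in every NeuN-negative one.

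Among the AP-1 genes, Junb, a Jun protein that often restrains c-Jun, showed the largest difference of the 10 in NeuN-negative nuclei. Its levels were 69.8, 24.0, 112, 28.2 and 83.6 CPM in EAE replicates 1 to 5, against 10.1, 13.6, 9.65, 10.2 and 12 CPM in healthy replicates 1 to 5. The groups did not overlap, and the EAE libraries fell into a low pair, EAE 2 and EAE 4, and 3 higher ones. Its log2 fold change was 2.73 ± 0.37 (SE, edgeR adjusted p = 8.11e-05), and 3.20 ± 0.26 without the 3 replicates (adjusted p = 3.44e-06). Junb (chr8:84974484-84978718, minus strand, GRCm38, protein-coding) shares 351 bases with Prdx2 on the opposite strand, and the use of strand in counting is not given in the sources used here. Prdx2, an antioxidant enzyme gene, had a log2 fold change of 0.55 ± 0.29 in the same comparison (adjusted p = 0.158).

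Fos, whose protein is the classical partner of Jun in AP-1, was likewise higher in EAE. It was at 17.3, 10.7, 30.4, 9.41 and 20.9 CPM in EAE NeuN-negative replicates 1 to 5, against 5.18, 4.18, 5.02, 5.0 and 7.76 CPM in healthy ones. All EAE values lay above all healthy values, with EAE 2 and EAE 4 again the lowest of their group. Between the groups Fos differed by 1.94 ± 0.37 on the log2 scale (adjusted p = 0.00135; 2.29 ± 0.34 and adjusted p = 0.000354 without the 3 replicates). Fos lies at chr12:85473890-85477273 on the plus strand.

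Fosb, which encodes FosB and its stable short form ΔFosB, was the least abundant AP-1 gene per kb of exon. EAE NeuN-negative libraries held 2.79, 8.83, 2.51, 3.8 and 4.38 CPM, against 0.406, 0.934, 0.643, 1.71 and 1.29 CPM in healthy ones. The groups did not overlap, and EAE 2 was the highest library, unlike for Fos and Junb. For Fosb the log2 fold change was 2.47 ± 0.73 (adjusted p = 0.0201) and 1.84 ± 0.59 without the 3 replicates (adjusted p = 0.0328), or 5.54-fold and 3.58-fold. The call was lost without EAE 2 (adjusted p = 0.0541), Healthy 1 (0.076) or Healthy 2 (0.0706), with no count filter (0.0832) and with the mitochondrial share as a covariate (1.29, adjusted p = 0.301).

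Jun, which encodes c-Jun, was the AP-1 gene that missed the threshold. Its levels were 55.4, 17.0, 48.1, 31.6 and 42.4 CPM in EAE NeuN-negative libraries, against 28.2, 29.4, 21.0, 26.7 and 40.2 CPM in healthy ones. EAE 2 lay below every healthy library and EAE 1, 3 and 5 above every one. The difference, 0.66 ± 0.29 on the log2 scale, missed the threshold (adjusted p = 0.0982). It was 0.88 ± 0.25 without the 3 replicates and then passed the test (adjusted p = 0.0175), as it did without EAE 2 alone (adjusted p = 0.0404), by voom (0.79, adjusted p = 0.00379) and with the mitochondrial covariate (1.18, adjusted p = 0.0171). Jun (chr4:95049034-95052222, minus strand) shares 689 bases with its antisense gene Junos, which averaged 5.95 CPM in EAE and 2.77 CPM in Healthy NeuN-negative libraries (log2 fold change 1.36 ± 0.56, adjusted p = 0.0803).

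The EGR genes were both higher in EAE NeuN-negative nuclei. Egr1, a growth factor and activity response gene on chromosome 18, was at 29.6, 0.63, 24.4, 20.4 and 24.9 CPM in EAE libraries, against 3.15, 3.57, 3.34, 6.37 and 13.4 CPM in healthy ones. EAE 2, where Egr1 had 2 counts, was the lowest of all 10 libraries, and the other 4 EAE libraries lay above every healthy one. The Egr1 log2 fold change was 1.98 ± 0.60 (adjusted p = 0.0234), and 2.21 ± 0.46 without the 3 replicates (adjusted p = 0.0035). The call was lost when EAE 1, 4 or 5 or Healthy 1, 2 or 4 was left out singly (adjusted p = 0.0537 to 0.0716).

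Egr2, a regulator of myelinating Schwann cells and of T cells and macrophages, was at 21.6, 17.7, 14.9, 6.61 and 15.9 CPM in EAE NeuN-negative libraries, against 6.6, 4.75, 6.95, 3.75 and 6.96 CPM in healthy ones. EAE 4 lay within the healthy range and the other 4 EAE libraries above it. Its log2 fold change was 1.64 ± 0.38 (adjusted p = 0.00526), and the call held when each library was left out in turn (adjusted p = 0.00287 to 0.0267). Egr2 lies at chr10:67535475-67542188 on the plus strand.

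Of the NR4A genes, Nr4a1 (Nur77, induced by antigen receptor signals in T cells and active in monocytes) was at 34.6, 17.7, 38.8, 17.0 and 22.8 CPM in EAE NeuN-negative libraries, against 16.1, 22, 12.7, 12.5 and 22.2 CPM in healthy ones. The groups overlapped, with EAE 2 and EAE 4 within the healthy range. Nr4a1 rose by 0.85 ± 0.30 on the log2 scale (adjusted p = 0.0439) and 1.06 ± 0.30 without the 3 replicates (adjusted p = 0.0178). The call was lost when any single library other than EAE 2 was left out (adjusted p = 0.054 to 0.172), with no count filter (0.324) and in the fit over 20 libraries (0.163). Nr4a2 (Nurr1, needed for midbrain dopamine neurons) was at 1.6 to 10.1 CPM in EAE, against 0.91 to 5.26 CPM in healthy libraries, and did not pass the test (1.07 ± 0.64, adjusted p = 0.219). By voom Nr4a2 passed (1.06, adjusted p = 0.0398).

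Arc, which encodes a postsynaptic capsid-forming protein that acts on AMPA receptor traffic, went the other way. It was at 11, 10.7, 24.9, 4.8 and 11.8 CPM in EAE NeuN-negative libraries, against 55.1, 69.9, 33.8, 59.5 and 58.5 CPM in healthy ones. The groups did not overlap, and the lowest healthy library, Healthy 3, was above the highest EAE one. The log2 difference for Arc was -1.88 ± 0.36 (adjusted p = 0.00131), and -1.68 ± 0.32 without the 3 replicates (adjusted p = 0.00209). Npas4, a neuronal transcription factor gene, was at 7.43 to 13.9 CPM in EAE, against 2.13 to 29.1 CPM in healthy NeuN-negative libraries (0.26 ± 0.57, adjusted p = 0.752). The highest healthy value was that of Healthy 3. Without the 3 replicates the Npas4 difference was 0.87 ± 0.47 (adjusted p = 0.178), and by voom it passed (1.19, adjusted p = 0.0439). Arc lies at chr15:74669083-74672570 and Npas4 at chr19:4984355-4990316, both on the minus strand.

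Across the 10 genes, 3 had all 5 EAE NeuN-negative libraries above all healthy ones (Fos, Fosb and Junb; 7.04% of all genes tested), and 1 had all of them below (Arc; 11.6% of all genes tested). Markers of blood-borne cells were higher in the same libraries. Of the markers tested, 12 of 12 for monocytes and macrophages, 12 of 12 for T cells and 6 of 7 for neutrophils were called higher, while 7 of 12 for oligodendrocytes and 4 of 10 for astrocytes were called lower. Summed over the list, monocyte and macrophage markers stood at 902 to 3189 CPM in EAE and 80.8 to 132 CPM in Healthy NeuN-negative libraries, led by Lyz2, and T cell markers at 136 to 287 CPM in EAE and 7.59 to 15.3 CPM in healthy libraries, led by Lck. Of the 10 microglial markers 1 was higher and 1 lower, with sums of 407 to 1669 CPM in EAE and 647 to 828 CPM in healthy libraries; without the 3 replicates 5 were higher and 1 lower. Astrocyte markers summed to 476 to 1519 CPM in EAE and 1152 to 3398 CPM in healthy libraries, led by Aldoc, and oligodendrocyte markers to 32014 to 110206 CPM in EAE and 41249 to 71397 CPM in healthy libraries, led by Mbp. No marker of these lists was at 0 in all libraries of either NeuN-negative group. The part of these cell types in the values of the 10 genes was not tested.

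In NeuN-positive nuclei, Egr2 and Junb were higher in EAE, by 3.76-fold and 2.19-fold, and the other 8 genes did not pass the test. Of the 10 genes, 2 were called higher, against 6.55% of the 16675 genes tested, and 0 were called lower, against 3.68%. Leaving out the 3 replicates, 1 was called higher (Egr2) and 0 lower, against 7.21% and 1.83% of all genes. With the mitochondrial share as a covariate 0 were called. The median log2 fold change of the 10 genes was 0.35 with all libraries and 0.15 without the 3 replicates, and that of all genes was -0.03 and 0.01. No call was left without EAE 4, EAE 5, Healthy 1, Healthy 2 or Healthy 4 singly (0 of 10), and 1 without EAE 2. At an unadjusted p under 0.05 there were 5 genes, the further 3 being Fosb, Jun and Arc, the one lower gene. The DESeq2 Wald test called Jun higher and Arc lower as well. Shares over all genes with the covariate, with single libraries left out, at the unadjusted p and by the Wald test are not given here.

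Egr2 was at 2.64, 2.37, 4.87, 7.48 and 5.12 CPM in EAE NeuN-positive libraries, against 1.25, 0.552, 1.89, 1.51 and 1.16 CPM in healthy ones. All EAE libraries were above all healthy ones, the highest being EAE 4. The log2 fold change was 1.91 ± 0.50 (adjusted p = 0.0274) and 2.05 ± 0.43 without the 3 replicates (adjusted p = 0.0165). The call was lost when EAE 4 or 5 or Healthy 1, 2, 4 or 5 was left out singly (adjusted p = 0.0543 to 0.0822) and with the mitochondrial share as a covariate (adjusted p = 0.0651).

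Junb was at 15.2, 22.9, 38.4, 18.1 and 18.2 CPM in EAE NeuN-positive libraries, against 11.1, 13.9, 5.96, 9.18 and 14.6 CPM in healthy ones. The groups did not overlap, although EAE 1 and Healthy 5 were close, and EAE 3 was the highest. The log2 fold change was 1.13 ± 0.32 (adjusted p = 0.0376). It was 1.09 ± 0.34 without the 3 replicates, where the call was lost (adjusted p = 0.0712), as it was without EAE 2, 3, 4 or 5 or Healthy 1, 2 or 4 singly (adjusted p = 0.0533 to 0.0926), with no count filter (0.0806), with the mitochondrial covariate (0.0857) and in the fit over 20 libraries (0.0752). Prdx2, which overlaps Junb, had a log2 difference of 0.38 ± 0.29 here (adjusted p = 0.403). Junb and Egr2 were the 2 genes with no overlap between the groups, against 5.16% of all genes tested with every EAE library higher and 4.75% with every EAE library lower.

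The other AP-1 genes did not pass the test in NeuN-positive nuclei. Jun was at 14, 16.3, 18.4, 17.0 and 12.5 CPM in EAE, against 8.74, 10.8, 6.85, 7.19 and 13 CPM in healthy libraries, with EAE 5 alone below a healthy library, Healthy 5 (log2 fold change 0.83 ± 0.27, adjusted p = 0.0597). Without Healthy 5 it passed (adjusted p = 0.0453). Fosb was at 2.1 to 10.1 CPM in EAE and 0.894 to 3.31 CPM in healthy libraries, its highest value being EAE 4 (1.16 ± 0.54, adjusted p = 0.169). It stood at 0.19 ± 0.38 without the 3 replicates. Fos spread as widely within the groups, at 3.45 to 19.4 CPM in EAE and 4.07 to 18.8 CPM in healthy libraries, as across them (0.05 ± 0.48, adjusted p = 0.956).

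Arc was at 15.6, 6.0, 26.1, 9.49 and 15.5 CPM in EAE NeuN-positive libraries, against 33.9, 39.4, 17.8, 27.3 and 38.9 CPM in healthy ones. Only EAE 3 and Healthy 3 crossed, and the log2 fold change was -1.03 ± 0.34 (adjusted p = 0.0698). Leaving out EAE 3 (adjusted p = 0.0149) or Healthy 3 (adjusted p = 0.0334) gave a call, whereas leaving out all 3 replicates that stood apart did not (-0.75 ± 0.26, adjusted p = 0.0911). Npas4 was at 183, 176, 105, 269 and 192 CPM in EAE, against 130, 125, 313, 166 and 77.1 CPM in healthy libraries, the highest value being Healthy 3 (0.26 ± 0.36, adjusted p = 0.661). Its difference was 0.49 ± 0.28 without the 3 replicates (adjusted p = 0.263), and by voom it passed (0.56, adjusted p = 0.0248). Egr1, Nr4a1 and Nr4a2 had log2 fold changes of 0.33 ± 0.33, -0.26 ± 0.34 and 0.38 ± 0.45 (adjusted p = 0.544 to 0.645).

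Blood-cell markers were higher in the EAE NeuN-positive libraries as well. Of the markers tested, 12 of 12 for monocytes and macrophages, 7 of 8 for T cells, 6 of 7 for neutrophils and 4 of 9 for microglia were called higher, and 0 of 12 for neurons were called either way. Monocyte and macrophage markers summed to 400 to 2020 CPM in EAE and 21.4 to 51.6 CPM in Healthy NeuN-positive libraries, and T cell markers to 29.3 to 155 CPM in EAE and 6.31 to 13.8 CPM in healthy ones. Microglial markers summed to 129 to 228 CPM in EAE and 24.4 to 50.3 CPM in healthy ones. Oligodendrocyte markers had larger sums, 10825 to 98021 CPM in EAE and 3666 to 44444 CPM in Healthy NeuN-positive libraries. Of these 12 markers 2 were called higher and 0 lower. Of 10 endothelial markers 1 was called higher and 0 lower, and of 10 astrocyte markers 0 were called. Neuronal markers summed to 39923 to 67911 CPM in EAE and 40978 to 60835 CPM in healthy ones, led by Meg3 with means of 25150 and 24179 CPM. The DESeq2 Wald test called 1 of these 12 lower and 0 higher. At an unadjusted p under 0.05 by edgeR 1 was higher and 1 lower. Rbfox3, also on that list, was at 116 to 264 CPM in EAE and 263 to 350 CPM in Healthy NeuN-positive libraries. Cxcr2, a neutrophil marker, was at 0 in all Healthy NeuN-positive libraries. The part of these cells in the values of Egr2 and Junb was not tested.

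**Figure D2:**
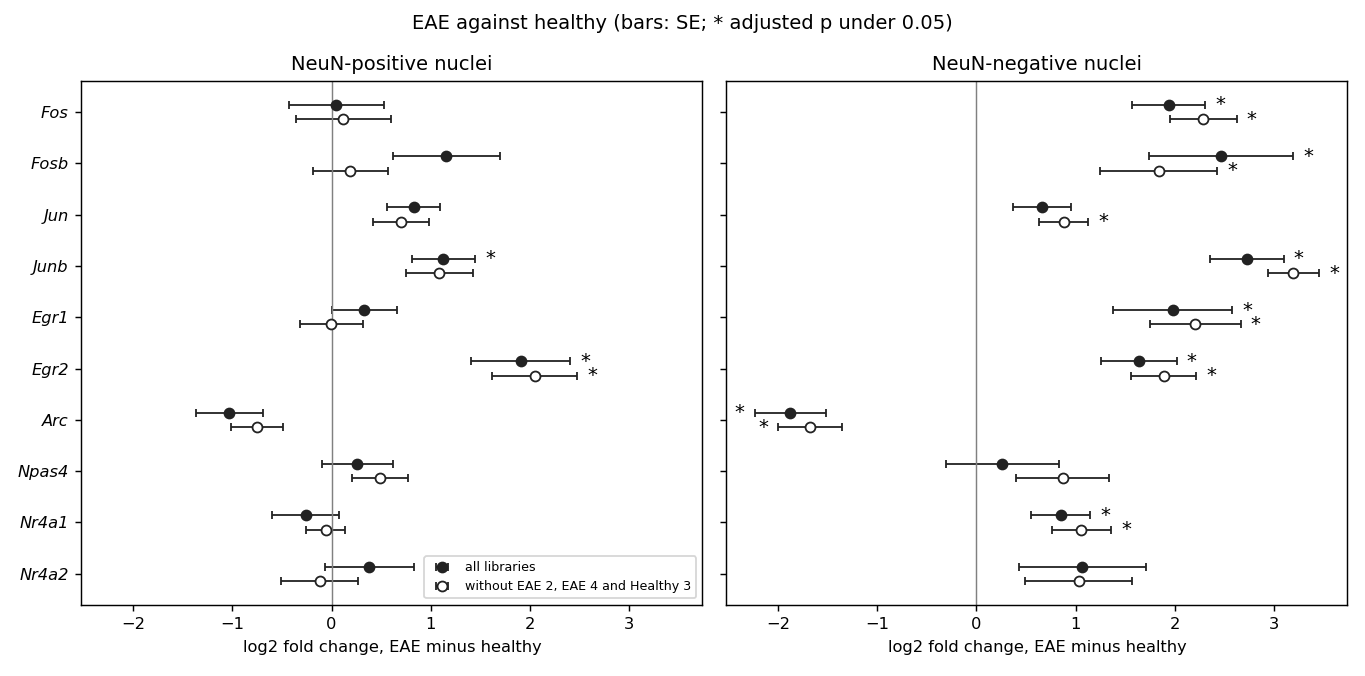
Log2 fold change of EAE over healthy for the 10 genes in NeuN-positive (left) and NeuN-negative (right) nuclei, with SE bars; filled points use all 5 libraries a group and open points leave out replicates EAE 2, EAE 4 and Healthy 3. In NeuN-negative nuclei 6 genes pass the test above 0 and Arc below it, and in NeuN-positive nuclei Junb and Egr2 pass it with all libraries.

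Whether the EAE difference itself differed between the sorts was tested over all 20 libraries. The main fit took same-numbered libraries as unpaired. With all libraries 3 of the 10 genes had an unadjusted p under 0.05 by edgeR, and the DESeq2 Wald test called 2 and voom 5. Shares over all genes are not given here for these counts. At the edgeR threshold no gene passed (0 of 10), against 1.74% of the 20444 genes tested called higher and 0.822% called lower. The median of the 10 genes was -0.73, and that of all genes 0.15. The lowest p were those of Junb, whose EAE log2 fold change was 1.49 ± 0.52 smaller in NeuN-positive nuclei (difference -1.49, adjusted p = 0.119), and of Fos (-1.76 ± 0.64, adjusted p = 0.133). With each same-numbered pair of a condition as a block, 3 passed by edgeR, with no share over all genes given here. Fos (-1.72 ± 0.50, adjusted p = 0.0336) and Junb (-1.31 ± 0.41, adjusted p = 0.0463) had the smaller EAE difference in NeuN-positive nuclei. Arc (1.06 ± 0.33, adjusted p = 0.0437) had the less negative EAE difference there. Junb also passed without the 3 replicates (-2.15 ± 0.45, adjusted p = 0.017), as the single one called lower, against 1.82% of all genes; 1.83% were called higher. Egr2 did not differ past the threshold (0.43 ± 0.59, adjusted p = 0.754), nor did Npas4 (0.14 ± 0.65, adjusted p = 0.941). With standard errors of this size, a p above the threshold does not show that the sorts responded alike.

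The sorts themselves separated the genes. Npas4 and Nr4a1 were higher in NeuN-positive nuclei in both conditions, and Jun and Egr2 were lower there in both. In EAE mice 2 of the 10 genes were called higher in NeuN-positive nuclei and 3 lower, against 15.5% and 14.8% of the 17982 genes tested. In healthy mice 3 were called higher and 3 lower, against 22.8% and 23.0% of the 17134 genes tested. The main tests between sorts were unpaired. With same-numbered pairs as the block the healthy counts were 5 and 3, with no share over all genes given here. Without the 3 replicates the counts were 2 and 3 in EAE, against 20.9% and 20.8% of all genes, and 5 and 3 in healthy mice, against 25.8% and 26.2%. Calls were common among all genes in both comparisons, so the counts alone do not set the 10 genes apart.

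Npas4 gave the widest gap. NeuN-positive libraries held 105 to 269 CPM in EAE and 77.1 to 313 CPM in healthy mice, and NeuN-negative libraries 7.43 to 13.9 CPM in EAE and 2.13 to 29.1 CPM in healthy mice. The log2 difference between sorts was 3.93 ± 0.38 in EAE mice (adjusted p = 8.61e-06) and 3.90 ± 0.68 in healthy mice (adjusted p = 0.000505), and NeuN-positive was above NeuN-negative in 5 of 5 same-numbered pairs in each. Summed neuronal markers were at 1541 to 5616 CPM in EAE and 2281 to 6070 CPM in Healthy NeuN-negative libraries, and their part in the Npas4 counts there was not tested.

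Nr4a1 had a log2 difference between sorts of 0.96 ± 0.35 in EAE mice (adjusted p = 0.0469) and of 2.02 ± 0.31 in healthy mice (adjusted p = 0.000188). Its NeuN-positive libraries held 74.8, 27.6, 57.8, 33.1 and 73.9 CPM in EAE and 95.9, 84.1, 26.4, 61.4 and 70.5 CPM in healthy mice, each above its NeuN-negative partner. EAE 2, EAE 4 and Healthy 3 were the 3 lowest of these 10 libraries. The EAE call was lost without NeuN-positive EAE 1, 3 or 5 or NeuN-negative EAE 1, 2, 4 or 5 singly (adjusted p = 0.0578 to 0.132), with DESeq2 size factors (0.0599) and with the mitochondrial covariate (0.46, adjusted p = 0.303).

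Jun was lower in NeuN-positive nuclei in EAE (-1.39 ± 0.32, adjusted p = 0.00358) and in healthy mice (-1.59 ± 0.25, adjusted p = 0.000197), in all 5 pairs of each. Egr2 was lower by a similar measure, at -1.86 ± 0.45 in EAE (adjusted p = 0.00555) and -2.18 ± 0.39 in healthy mice (adjusted p = 0.000595). In the same comparison of EAE mice 10 of 10 microglial and 9 of 12 monocyte and macrophage markers were lower in NeuN-positive nuclei, against 14.8% of all genes. So were 9 of 12 oligodendrocyte, 8 of 12 T cell, 6 of 10 astrocyte, 6 of 10 endothelial and 2 of 7 neutrophil markers, and 1 neutrophil marker was higher. In healthy mice 10 of 10 microglial, 10 of 12 oligodendrocyte, 10 of 10 astrocyte and 9 of 10 endothelial markers were lower, against 23.0%. The part of these cell types in the Jun and Egr2 differences was not tested. The exception among the 10 pairs for Egr2 was EAE 4, at 7.48 CPM in NeuN-positive and 6.61 CPM in NeuN-negative nuclei.

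Junb, Egr1 and Arc were called between the sorts in 1 condition. Junb was lower in NeuN-positive nuclei in EAE mice (-1.54 ± 0.41, adjusted p = 0.00856, 5 of 5 pairs), and had a difference of 0.02 ± 0.26 in healthy mice (adjusted p = 0.963). Egr1 was higher in NeuN-positive nuclei in healthy mice (2.23 ± 0.46, adjusted p = 0.00162, 5 of 5 pairs), with 26.4, 28.6, 14, 20.5 and 46.6 CPM in NeuN-positive libraries against the 3.15 to 13.4 CPM of NeuN-negative ones. In EAE mice its NeuN-positive libraries held 22.2 to 50.5 CPM (0.59 ± 0.52, adjusted p = 0.4). Arc was lower in NeuN-positive nuclei in healthy mice (-0.77 ± 0.24, adjusted p = 0.0186, 5 of 5 pairs), and that call was lost without NeuN-negative Healthy 2 (adjusted p = 0.0519), with no count filter (0.0724) and in the fit over 20 libraries (0.0989). In EAE mice the Arc difference was 0.14 ± 0.46 (adjusted p = 0.841). A call in 1 condition does not show that the conditions differ; that test is the one over all 20 libraries.

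Fos and Fosb had positive sort differences in healthy mice, 0.99 ± 0.40 (adjusted p = 0.0605) and 1.15 ± 0.50 (adjusted p = 0.0822). Both passed with the replicate block (adjusted p = 0.0327 and 0.0479) and without Healthy 3 in both sorts (adjusted p = 0.0231 and 0.047). Leaving out NeuN-positive Healthy 3 alone gave adjusted p = 0.0166 for Fos and 0.043 for Fosb, and leaving out NeuN-positive Healthy 4 gave 0.0372 for Fos. In EAE mice the differences were -0.86 ± 0.46 for Fos and -0.14 ± 0.67 for Fosb, and neither passed. Nr4a2 did not differ past the threshold between the sorts in EAE (-0.75 ± 0.65) or in healthy mice (-0.09 ± 0.44). No overlap between the sorts was seen for Npas4 alone in EAE mice, against 12.3% of all genes with every NeuN-positive library higher and 7.15% with every one lower. In healthy mice Egr1, Npas4 and Nr4a1 were higher in every NeuN-positive library (16.6% of all genes), and Jun and Egr2 lower in every one (17.2%).

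**Figure D3:**
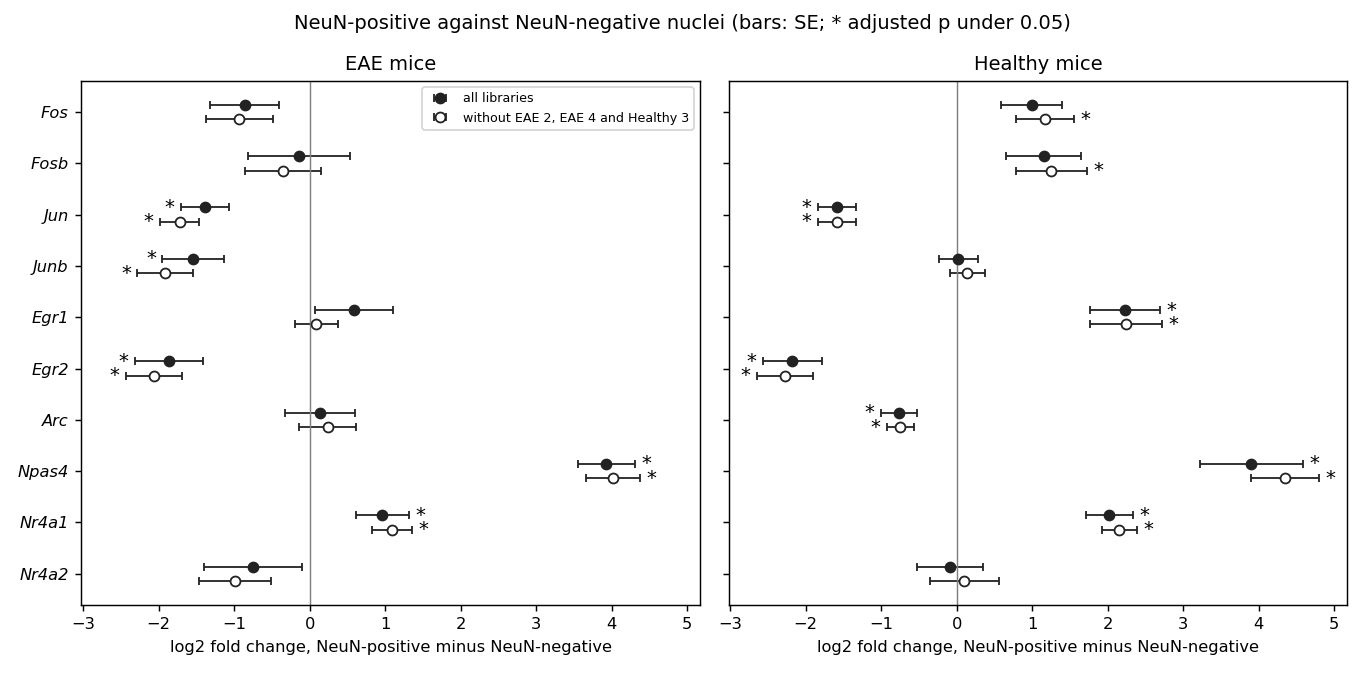
Log2 fold change of NeuN-positive over NeuN-negative nuclei for the 10 genes in EAE (left) and healthy (right) mice, with SE bars; filled points use all libraries and open points leave out replicates EAE 2, EAE 4 and Healthy 3. Npas4 stands at 3.93 and 3.90 and Nr4a1 at 0.96 and 2.02, while Jun and Egr2 lie below 0 in both panels.

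Ordered by mean CPM, the 4 groups ranked differently from gene to gene. EAE NeuN-negative nuclei held the highest mean for Fos, Jun, Junb, Egr2 and Nr4a2, EAE NeuN-positive nuclei for Fosb, Egr1 and Npas4, Healthy NeuN-positive nuclei for Nr4a1 and Healthy NeuN-negative nuclei for Arc. Most neighbours in these orders overlapped in their libraries. The exceptions were Jun between Healthy NeuN-negative and EAE NeuN-positive, Junb between EAE NeuN-positive and Healthy NeuN-negative, Egr2 between EAE NeuN-positive and Healthy NeuN-positive, and Npas4 between Healthy NeuN-positive and EAE NeuN-negative.

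Levels of different genes were compared per kb of exon. Npas4 was the most abundant of the 10 in NeuN-positive nuclei, at 44.7 ± 14.1 CPM per kb in EAE and 39.2 ± 21.8 CPM per kb in healthy mice, followed by Nr4a1 at 15.2 ± 6.34 CPM per kb in EAE and 19.3 ± 7.56 CPM per kb in healthy mice (SD, n = 5 each). In NeuN-negative nuclei Junb led in EAE at 27.6 ± 16.3 CPM per kb, ahead of Jun at 12.2 ± 4.71 CPM per kb. In healthy mice Arc led there at 18.1 ± 4.33 CPM per kb, ahead of Jun at 9.12 ± 2.19 CPM per kb. Fosb was the least abundant in all 4 groups, at 0.159 to 0.722 CPM per kb.

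Within groups some of the genes varied together. Deviations from the group means on the log2 CPM scale were correlated over the 20 libraries, which share depth, sort and, for same-numbered sorts, possibly the animal. Over the 45 pairs of genes Pearson's r ran from -0.52 to 0.86, with a median of 0.09. The highest were Jun with Egr1 (0.86), Jun with Junb (0.80), Arc with Nr4a1 (0.76) and Fos with Junb (0.74), and the lowest were Npas4 with Jun (-0.52), Fos (-0.51), Arc (-0.49) and Nr4a1 (-0.49). Without the 3 replicates (14 libraries) the highest were Junb with Arc (0.85), Fos with Jun (0.80) and Jun with Egr1 (0.77). Arc with Nr4a1 then stood at 0.25. Npas4 stood at -0.46 with Jun, -0.43 with Fos, -0.23 with Arc and -0.08 with Nr4a1. Single libraries carried many of the extremes: NeuN-positive Healthy 3 was the lowest of its group for 7 of the 10 genes and the highest for Egr2 and Npas4, and NeuN-negative Healthy 5 was the highest of its group for 6.

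The genes outside the list whose deviations were most like the mean of the 10 were Mrps2 (r = 0.89), Dnajc9 (0.87), Cggbp1 (0.86), Nampt (0.86) and Hnrnpd (0.85), of 14033 genes ranked over 20 libraries. Without the 3 replicates Mrps2 stood at rank 61 (0.85) and Cggbp1 at rank 1195 (0.65). The order of likeness thus changed once the libraries that stood apart were left out.

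Related genes were followed in 5 lists. Of the 13 other AP-1 family genes, 4 were higher in EAE NeuN-positive nuclei (median log2 fold change 0.62, against 6.55% of all genes) and 7 in EAE NeuN-negative nuclei (median 1.58, against 15.1%). With all libraries, none of the 13 was lower in either by edgeR or the DESeq2 Wald test, nor at an unadjusted p under 0.05; without the 3 replicates 1 was lower at that p in NeuN-negative nuclei. Atf3, a stress-induced partner of Jun and a marker of injured neurons, averaged 25.9 ± 11.9 CPM in EAE and 2.95 ± 0.644 CPM in Healthy NeuN-negative libraries (log2 fold change 3.35 ± 0.39, adjusted p = 1.83e-05). In NeuN-positive libraries it averaged 7.15 ± 1.55 CPM in EAE and 0.934 ± 0.443 CPM in healthy mice (3.04 ± 0.45, adjusted p = 0.000639). Fosl2 (Fra-2) rose in NeuN-negative nuclei by 2.93 ± 0.42 (adjusted p = 0.000124), and Batf, an AP-1 factor of lymphocytes, rose in NeuN-positive nuclei to 3.8 ± 2.6 CPM, against 0.29 ± 0.238 CPM in healthy ones (3.73 ± 0.77, adjusted p = 0.00737). Without the 3 replicates the Batf difference was 2.69 (adjusted p = 0.0118).

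Of the other EGR and NR4A genes and the NAB corepressors, 2 of 3 tested were higher in EAE NeuN-negative nuclei, against 15.1% of all genes. Both were corepressors, Nab2 (1.96 ± 0.43, adjusted p = 0.00375) and Nab1 (1.18 ± 0.33, adjusted p = 0.0152). Nr4a3, the other gene tested, missed the threshold (1.54 ± 0.57, adjusted p = 0.0545). Without the 3 replicates 3 of 3 tested passed, against 17.4%. In NeuN-positive nuclei 0 of 4 passed by edgeR or the DESeq2 Wald test, and 1 was lower at an unadjusted p under 0.05. By edgeR 6.55% of all genes were called higher there and 3.68% lower. Nab2 averaged 53.7 ± 34.1 CPM in EAE and 15.9 ± 3.9 CPM in Healthy NeuN-negative libraries.

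Among activity-regulated neuronal targets, 6 of 22 were higher in EAE NeuN-negative nuclei (median 0.71, against 15.1% of all genes), led by Ptgs2, the inducible cyclooxygenase also made by myeloid cells (14.7 ± 5.69 CPM in EAE, against 0.62 ± 0.38 CPM in healthy libraries; 4.84 ± 0.55, adjusted p = 1.43e-05). Rasgrp1, a Ras activator of neurons and T cells, rose by 3.16 ± 0.47 (adjusted p = 0.000161). In NeuN-positive nuclei 1 of 21 was higher (Ptgs2, 2.33 ± 0.64, adjusted p = 0.035) and 1 lower, near the 6.55% and 3.68% of all genes. The lower one was Nptx1, a synaptic pentraxin gene, with a smaller difference (-0.79 ± 0.22, adjusted p = 0.0377). Both NeuN-positive calls were lost without the 3 replicates (adjusted p = 0.0696 and 0.0743).

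Of the 32 feedback inhibitors and other fast-induced genes, 19 were higher in EAE NeuN-negative nuclei (median 1.32, against 15.1% of all genes), among them Dusp2, a MAP kinase phosphatase of leukocytes (21.7 ± 15.7 CPM in EAE, against 0.742 ± 0.508 CPM in healthy libraries; 5.03 ± 0.67, adjusted p = 6.49e-05), and Ier3 (2.92 ± 0.35, adjusted p = 2.44e-05). In EAE NeuN-positive nuclei 12 of 32 were higher (median 0.86, against 6.55% of all genes), among them Ccn1, a matricellular protein gene (15.2 ± 4.65 CPM in EAE, against 1.05 ± 0.409 CPM in healthy libraries; 3.93 ± 0.38, adjusted p = 3.04e-05), and Nfkbia, the NF-κB inhibitor (2.04 ± 0.26, adjusted p = 0.000206). With all libraries, none of the 32 was lower in either comparison by edgeR, the Wald test or at an unadjusted p under 0.05. Between the sorts, 18 of the 32 had lower values in NeuN-positive nuclei of EAE mice past the threshold, against 14.8% of all genes. In healthy mice 15 were lower and 4 higher, against 23.0% and 22.8% of all genes. The EAE counts without the 3 replicates were 23 in NeuN-negative and 11 in NeuN-positive nuclei, against 17.4% and 7.21% of all genes.

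The upstream factors (SRF, its ternary complex partners, CREB, MEF2 and their kinases and coactivators) included 22 genes. In EAE NeuN-negative nuclei 2 were higher and 2 lower (median -0.28), against 15.1% and 12.6% of all genes, and in NeuN-positive nuclei 1 was higher (median -0.20), against 6.55%. Without the 3 replicates 4 were higher and 2 lower in NeuN-negative nuclei, against 17.4% and 12.3% of all genes. In NeuN-positive nuclei 2 were then higher, against 7.21%. Elk3, a ternary complex factor, was higher in NeuN-positive nuclei (1.06 ± 0.31, adjusted p = 0.0471) and in NeuN-negative nuclei (1.35 ± 0.36, adjusted p = 0.0114). Crtc1, a CREB coactivator, averaged 45.2 ± 13.9 CPM in EAE and 136 ± 30.1 CPM in Healthy NeuN-negative libraries (-1.36 ± 0.31, adjusted p = 0.00506). Rps6ka5, the kinase MSK1 that phosphorylates CREB, was also lower (-1.82 ± 0.38, adjusted p = 0.00269), and Camk4, a CREB kinase of neurons and T cells, was higher (1.63 ± 0.36, adjusted p = 0.00393).

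**Figure D4:**
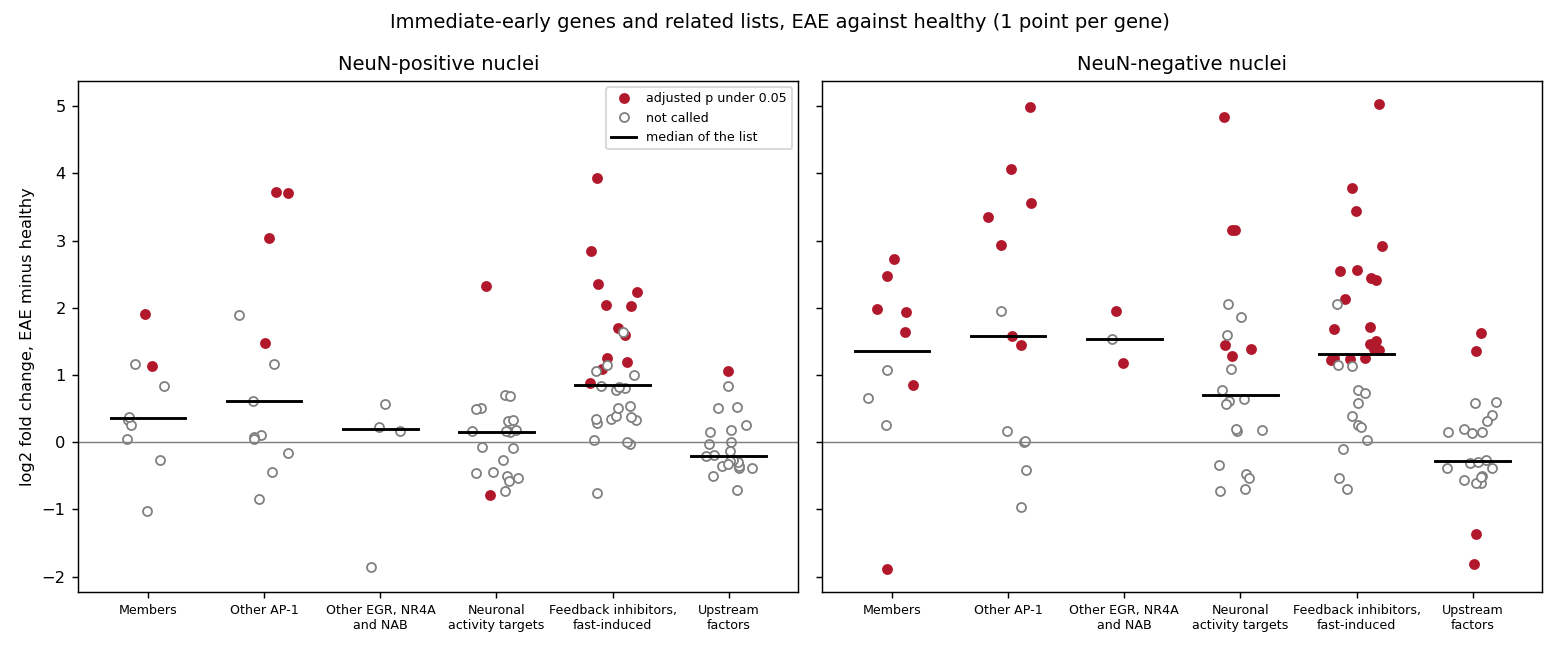
Log2 fold change of EAE over healthy (1 point a gene) for the 10 genes and the 5 related lists in NeuN-positive (left) and NeuN-negative (right) nuclei; red filled points passed the test and lines are list medians. The medians of the fast-induced genes are 0.86 and 1.32, those of the 10 genes 0.35 and 1.35 and those of the upstream factors -0.20 and -0.28.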

How the data were processed

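Per the labels' protocols, a Qiagen RNeasy kit gave the RNA of NeuN-sorted spinal cord nuclei and TruSeq chemistry the poly A libraries. The authors deposited 1 table of raw, unnormalized counts per gene. Per the submitters' processing notes, the tools include STAR 2.4 and DESeq2, and both GRCm39 and mm10 appear as builds, with no role given. The counter, annotation release and strand setting were not given in the sources used here. Positions are those of GENCODE M21 (GRCm38), by gene ID.

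Each comparison was fitted with edgeR 4.0.16 in R 4.3.3 on all genes of its 10 libraries (20 for the difference between sorts): filterByExpr, TMM, robust quasi-likelihood fit and Benjamini-Hochberg adjustment over every gene kept, with a call at adjusted p under 0.05. The fitting code was checked on simulated counts with 200 genes changed by known folds. Those counts had the same dispersion for every gene, no libraries that stood apart and no correlated sorts. The check therefore says nothing on how such features affect the calls here. All 10 genes passed the filter in all 5 comparisons. CPM used TMM factors over 20 libraries, and levels per kb divided by exon bases. Alternatives were DESeq2 1.42.0 size factors and its Wald test, limma 3.58.1 voom with quality weights, no count filter, at least 1 CPM in 5 libraries, the replicate block, a fit over 20 libraries, the mitochondrial share as a covariate, omission of replicates EAE 2, EAE 4 and Healthy 3, and omission of each library; list counts under these settings were added after the data were seen. No pair of the 40 within groups was identical (chi-square per gene 11.1 to 393).

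NeuN-positive and NeuN-negative libraries of the same number were taken as pairs: their deviations from the group means correlated at 0.12 to 0.41 in EAE and 0.39 to 0.79 in healthy mice, all 10 over 0.1. Sorts of other numbers correlated at -0.20 to 0.08 in EAE and -0.61 to 0.43 in healthy mice. EAE and healthy libraries that share only a number were also over 0.1 in 3 of 5 NeuN-positive and 1 of 5 NeuN-negative cases. That limit alone therefore does not show a shared animal. The main fits did not use the same-numbered pairs of sorts. Pairs entered only the counts of pairs and the block fits. For the difference between sorts the block was each same-numbered pair of a condition. In the other fits the block was the replicate number. Besides the 10 genes, the text names up to 2 genes called each way by smallest p in each list and EAE comparison. It also names the most abundant marker of cell types it discusses, Rbfox3 and the 5 genes most alike. Junos, Nr4a3, Prdx2 and Cxcr2 were chosen after their values were seen. The genes, lists and alternatives were chosen with earlier results of these data known.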

Additional observations from a re-analysis of the deposited data

Results flagged for a closer look

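The highest or lowest library of each group was checked for each of the 10 genes (40 groups of 5 libraries). In 3 of them its gap to the nearest other library, as a share of the range of the group, was above 0.71, the critical value of Dixon's test for 5 samples; chance gives about 1 in 20. Fos was at 7.76 CPM (301 counts) in NeuN-negative Healthy 5, against 5.18 CPM in the next library. Npas4 was at 29.1 CPM (226 counts) in NeuN-negative Healthy 3, against 9.55 CPM in the next. Nr4a2 was at 6.63 CPM (42 counts) in NeuN-positive EAE 2, against 3.31 CPM in the next. Healthy 3 and EAE 2 are among the replicates with a high mitochondrial share, and the part of that share in these values was not tested.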

How the results depend on the processing

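The count of the 10 genes called for EAE in NeuN-positive nuclei was 2; it was 4 by the DESeq2 Wald test, 5 by voom, 0 with the replicate block, 0 with the mitochondrial covariate, 1 without replicates EAE 2, EAE 4 and Healthy 3 and 1 in the fit over 20 libraries, and 0 to 3 when each library was left out. That block joined EAE and healthy libraries of the same number, which share only a number. For the difference between sorts, 0 became 2 by the Wald test, 5 by voom and 3 with same-numbered pairs as the block. It became 1 without the 3 replicates and 2 with the covariate, and stayed 0 when each library was left out. The counts of 7 (EAE, NeuN-negative), 5 (sorts, EAE) and 6 (sorts, healthy) stayed within 1.5 times under these settings, and ran from 4 to 7, 4 to 5 and 5 to 8 when each library was left out. Within that limit the count of 7 still moved. It was 10 by voom (9 higher and 1 lower), 5 with no count filter and 5 with the replicate block. The block changed no other count by over 1.5 times. Of the 13 other AP-1 genes, 3 to 5 were called for EAE in NeuN-positive and 7 to 8 in NeuN-negative nuclei under these settings. Shares of all genes called under each of these settings are not given here, so these counts alone do not set the genes apart. The causes were not tested.

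Signs turned only for genes that were not called. For EAE in NeuN-positive nuclei, Fos (0.05) was -0.24 by voom, -0.11 unfiltered, -0.02 with the block and -0.04 over 20 libraries; Egr1 was -0.03 by voom and -0.00089 without the 3 replicates; Nr4a2 was -0.12 without them. With the covariate Npas4 was -0.01, Nr4a1 0.21 and Nr4a2 -0.09. For EAE in NeuN-negative nuclei Npas4 was -0.09 unfiltered and -0.64 with the covariate. Between sorts in EAE, Fosb was 0.12 unfiltered, 0.66 with the covariate and 0.01 over 20 libraries, and Arc -0.38 with the covariate. In healthy mice Junb was -0.01 with the block, -0.11 with the covariate and -0.02 over 20 libraries, and Nr4a2 0.17 by voom, 0.01 with the block and 0.10 without the 3 replicates. In the difference between sorts Jun was -0.01 by voom and -0.22 without the 3 replicates, and Npas4 -0.09 with DESeq2 size factors, -0.08 by the Wald test, -0.65 by voom, -0.15 with the block and -0.43 without the 3 replicates; those size factors shifted the all-gene median by -0.25 there and by -0.10 between sorts in EAE. With each library left out, values ran from -0.31 to 0.34 (Fos, NeuN-positive EAE), -0.07 to 1.05 (Npas4, NeuN-negative EAE), -0.59 to 0.36 (Fosb) and -0.16 to 0.56 (Arc, both sorts in EAE), -0.12 to 0.15 (Junb) and -0.36 to 0.11 (Nr4a2, both sorts in healthy mice) and -0.82 to 0.51 (Npas4, difference between sorts). The lowest depth, 3149209 counts, limits genes under 1 CPM.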
